A study of Mus musculus with 11 samples.

Results

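The genes described here carry out and regulate the synthesis of cholesterol and of fatty acids. They were chosen by name as 28 genes: 18 enzymes that build sterols from acetyl-CoA, 4 genes that regulate the pathway or transport its product, and 6 enzymes that make and modify fatty acids. The choice was made with earlier results of these data known. Shares of all genes given beside counts of members therefore describe the set and are not an independent test. All probe sets annotated with 1 of the 28 symbols were taken. This gave 62 probe sets for 27 of the 28 genes, of 45101 probe sets and 18193 genes on the array, and Acat2 was not analysed here because the annotation used lists no probe set under that symbol. Every sample was mouse total RNA, and all shared 1 genetic background, a mix of C57/Bl and BlackSwiss. Induced pluripotent stem cells, which are differentiated cells returned to an embryonic-like state, came from ventricular myocytes (ViPSC, n = 3 arrays) or from tail tip fibroblasts (TiPSC, n = 3 arrays), and embryonic stem cells matched to them genetically (ESC, n = 3 arrays) were the reference. The starting cells were taken from pups at postnatal day 1. The myocytes (VM) and the fibroblasts (TTF) were each measured once, with no replicate error. All 9 pluripotent samples had been grown with serum and LIF on irradiated feeder fibroblasts, which were depleted by letting them settle on plastic before RNA was taken. The labels give neither the number of cell lines or animals behind a group nor whether its arrays came from separate cultures, so p-values reflect only how far these samples spread, which may be technical.

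Cholesterol synthesis starts with the mevalonate steps, which make isoprene units, goes on to squalene and its closure into the sterol rings, and ends with the late steps that trim lanosterol to cholesterol. Membrane-bound SREBP factors switch on these genes when sterol in the endoplasmic reticulum is low, and INSIG proteins hold SREBP back when sterol is plentiful. SREBP-2 acts mainly on cholesterol genes and SREBP-1c mainly on fatty acid genes. Dividing cells need both products for new membrane. SREBP binds sterol regulatory elements in promoters and works together with NF-Y, which binds the CCAAT box, and Sp1, which binds GC-rich boxes.

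The promoters of 4 of the 6 genes that were lower in ViPSC than in TiPSC by the test below are shown. Hsd17b7, which was also lower by that test, had a window that is not shown. Hmgcs1 is shown because it alone held the sterol regulatory element searched for. Each sequence shown is the 250 bases before the start that the RefSeq promoter table uses (GRCm38.p6), 5′ to 3′ on the gene's strand. For Mvk this start lies inside the gene span given below. Capitals mark CCAAT, its reverse complement ATTGG, or the element TCACNCCAC. The windows lie at chr8:64733579-64733828 on the minus strand (Msmo1), chr5:4104698-4104947 on the minus strand (Cyp51), chr13:8885356-8885605 on the plus strand (Idi1), chr5:114444019-114444268 on the plus strand (Mvk) and chr13:119690101-119690350 on the plus strand (Hmgcs1).
Msmo1: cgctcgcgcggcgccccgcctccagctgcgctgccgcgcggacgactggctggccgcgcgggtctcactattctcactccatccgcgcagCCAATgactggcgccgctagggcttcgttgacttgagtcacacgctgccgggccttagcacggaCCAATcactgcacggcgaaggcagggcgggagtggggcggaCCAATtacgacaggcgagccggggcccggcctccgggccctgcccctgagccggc
Cyp51: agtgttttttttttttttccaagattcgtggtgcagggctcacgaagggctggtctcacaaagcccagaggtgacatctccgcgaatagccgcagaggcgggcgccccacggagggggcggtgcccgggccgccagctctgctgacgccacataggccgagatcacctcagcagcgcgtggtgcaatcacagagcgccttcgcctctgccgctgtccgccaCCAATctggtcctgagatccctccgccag
Idi1: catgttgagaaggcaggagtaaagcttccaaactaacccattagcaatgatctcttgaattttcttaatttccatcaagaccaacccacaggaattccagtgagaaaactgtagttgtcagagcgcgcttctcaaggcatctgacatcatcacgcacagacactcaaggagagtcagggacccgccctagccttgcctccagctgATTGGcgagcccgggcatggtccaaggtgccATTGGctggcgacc
Mvk: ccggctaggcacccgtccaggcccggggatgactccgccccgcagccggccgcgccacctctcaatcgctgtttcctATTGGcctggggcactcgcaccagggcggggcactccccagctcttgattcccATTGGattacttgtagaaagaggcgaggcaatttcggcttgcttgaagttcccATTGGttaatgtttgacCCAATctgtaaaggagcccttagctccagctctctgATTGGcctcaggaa
Hmgcs1: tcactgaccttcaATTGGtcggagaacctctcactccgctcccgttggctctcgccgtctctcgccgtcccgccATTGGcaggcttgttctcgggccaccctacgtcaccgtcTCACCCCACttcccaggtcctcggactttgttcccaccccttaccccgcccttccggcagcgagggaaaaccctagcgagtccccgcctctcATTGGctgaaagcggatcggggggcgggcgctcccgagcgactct

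These windows plus the 50 bases after the start were searched on both strands, and 22 of the 28 genes had one. CCAAT occurred in 19 of the 22 genes (86.4%), against 41.1% of all 27025 genes with a window and 43.8% of the 6165 genes whose mean log2 level was at least 7 in the pluripotent cells. Msmo1 held 3 CCAAT boxes, which began 160, 96 and 55 bases before the start, and Cyp51 held 1, at 29 bases. Acaca, Acat2 and Elovl6 held none. The GC box GGGCGG occurred in 18 of the 22 genes (81.8%), against 38.2% of all genes but 73.2% of the genes at 7 or more. The element TCACNCCAC occurred in Hmgcs1 only, as TCACCCCAC starting 137 bases before the start, and in 1.44% of all genes. These are letter matches and not measured binding.

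The values are log2 expression values, on which 1 unit is a 2-fold difference, and are not compared between genes. The 6 markers of pluripotent cells averaged 12.01 to 12.38 in the 9 pluripotent arrays and 3.76 and 3.83 in VM and TTF. The VM sample held more than myocytes by its RNA: cardiomyocyte markers averaged 13.70 there, while endothelial markers averaged 10.69 and fibroblast markers 10.16. All 5 endothelial markers were at 7 or more in VM. Of the 8 fibroblast markers 6 were, while Thy1 was at 5.55 and Pdgfra at 6.70. The 8 fibroblast and feeder markers averaged 13.03 in TTF, 6.23 to 6.38 in ViPSC, 6.40 to 7.04 in TiPSC and 6.09 to 6.51 in ESC. The 5 endothelial markers averaged 5.36 to 5.50 in ViPSC and 4.84 to 5.00 in TiPSC, with Cdh5 and Emcn at 3.86 or below in both but Pecam1 at 8.17 to 8.30 in ViPSC and 6.59 to 7.20 in TiPSC and Tek at 6.12 to 6.26 and 5.07 to 5.76. The 4 measured blood and macrophage markers averaged 5.64 to 5.87 in ViPSC and 4.93 to 5.03 in TiPSC. Ptprc and Adgre1 were at 3.82 or below, while Cd68 was at 8.84 to 8.95 and 6.90 to 8.02, and Csf1r at 6.30 to 7.19 and 4.75 to 5.72. Whole chromosomes also differed between arrays. Relative to the mean of the 9 arrays, the median of the 644 chromosome 11 genes at 7 or more was 0.26 to 0.27 in ViPSC and 0.19 in ESC 3 but -0.20 to -0.17 in the other 5 arrays. The median of 422 chromosome 8 genes was 0.45 in TiPSC 3 and -0.09 to -0.01 elsewhere, and that of 253 X-linked genes was 0.65 in ESC 2 and ESC 3 and -0.20 to -0.12 elsewhere.

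The first comparison asked whether induced cells of the myocyte and fibroblast origins differ in the pathway. Cholesterol genes led by Msmo1, Cyp51 and Idi1 were lower in ViPSC than in TiPSC, and no fatty acid gene passed in either direction with the 1 probe set kept per gene. By limma with Benjamini-Hochberg adjustment over all genes, 6 of the 27 measured members were lower in ViPSC and 0 were higher. Of all genes, 5.63% passed, 2.43% lower and 3.20% higher. Of the 17 measured sterol enzymes, all 3 ViPSC arrays lay below all 3 TiPSC arrays in 14, a pattern seen in 19.1% of all genes. The median difference of these enzymes was -0.45, against -0.03 over all genes. All 17 differences lay below 0, where that of Tm7sf2 rounds to 0.00, against 58.2% of all genes. In bulk samples, fewer cells of a type and less RNA per cell cannot be told apart.

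**Figure D1:**
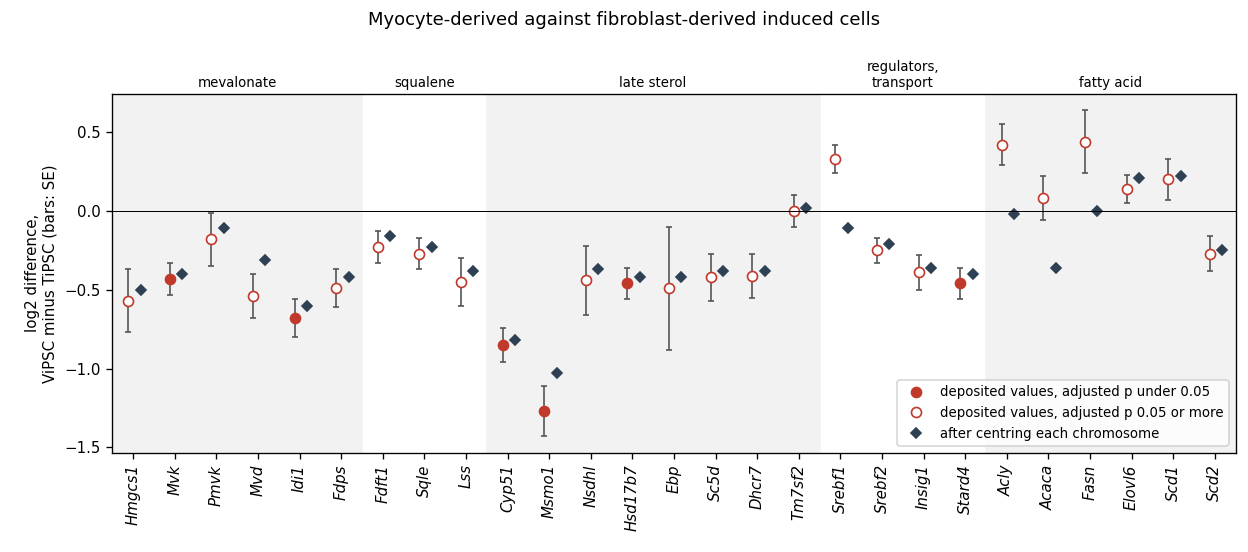
Vertical axis, ViPSC minus TiPSC difference in log2 units for the 27 measured members by pathway step, with bars of 1 standard error (n = 3 arrays a group), filled where the adjusted p was under 0.05, and diamonds for the values after centring by chromosome. The sterol enzymes lie at or below 0, down to -1.27 for Msmo1, while 5 of the 6 fatty acid enzymes lie above 0 before centring, where Acly and Fasn move to -0.02 and 0.00 after it.

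Among the mevalonate enzymes, 2 of 6 fell below TiPSC levels by the test. Idi1, the isomerase that activates the isoprene unit (chr13:8885606-8892396), was at log2 10.13, 10.00 and 10.17 in ViPSC, 10.81, 10.62 and 10.91 in TiPSC, and 10.45, 10.45 and 10.09 in ESC. Its ViPSC arrays lay below every TiPSC array, and ESC 3 fell within the ViPSC range. The difference was -0.68 ± 0.12 (SE, n = 3 and 3, adjusted p = 0.0162), which is 1.60-fold. A second Idi1 probe set gave -0.96 ± 0.18. Mvk, mevalonate kinase (chr5:114444264-114460591), was at 7.45, 7.60 and 7.44 in ViPSC, 7.95, 7.87 and 7.98 in TiPSC, and 7.72, 7.58 and 7.39 in ESC. The induced groups did not overlap, ESC lay nearer ViPSC, and the difference was -0.43 ± 0.10 (adjusted p = 0.0387).

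The other mevalonate enzymes did not pass with the probe set kept. Hmgcs1, the HMG-CoA synthase that opens the pathway, was at 11.72, 11.47 and 11.62 in ViPSC, 12.12, 11.98 and 12.43 in TiPSC, and 12.06, 12.16 and 11.37 in ESC. The induced groups did not overlap, but ESC spanned both, and the difference of -0.57 ± 0.20 had an adjusted p of 0.140. When every probe set was tested, 2 dimmer Hmgcs1 probe sets passed, at -0.66 ± 0.14 (adjusted p = 0.0335) and -0.61 ± 0.14 (adjusted p = 0.0398). Fdps, which joins the isoprene units into farnesyl diphosphate, was at 11.21, 11.11 and 11.31 in ViPSC, 11.86, 11.82 and 11.41 in TiPSC, and 11.10 to 11.13 in ESC. TiPSC 3 was the low TiPSC array for Fdps, and the difference was -0.49 ± 0.12 (adjusted p = 0.0509), or -0.63 ± 0.09 (adjusted p = 0.0108) without that array, within 0.00246 to 0.179 over 20 alternatives. Mvd, the decarboxylase that makes the first isoprene unit, was at 8.58 to 8.65 in ViPSC and at 9.06, 8.95 and 9.49 in TiPSC, a difference of -0.54 ± 0.14 (adjusted p = 0.0579). Mvd lies on chromosome 8, whose median was raised in TiPSC 3, and centring each array by chromosome gave -0.31 ± 0.08. Pmvk, phosphomevalonate kinase, differed by -0.18 with overlapping arrays.

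No enzyme that makes or closes squalene passed with the probe set kept. Squalene synthase Fdft1, the epoxidase Sqle and the cyclase Lss differed by -0.23, -0.27 and -0.45. By limma 0 of 3 passed after adjustment, and 2 of 3 had an unadjusted p under 0.05, as had 3814 of all 18193 genes. In all 3 the ViPSC arrays lay below the TiPSC arrays, as in 19.1% of all genes. Lss was the widest apart, at 9.27 to 9.32 in ViPSC and 9.67 to 9.93 in TiPSC. A dimmer Lss probe set, at 6.57 in all 3 ViPSC arrays and 7.13 to 7.36 in TiPSC, passed when every probe set was tested (-0.68 ± 0.11, adjusted p = 0.0125).

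The late sterol steps held the genes furthest apart. Msmo1, the methylsterol monooxygenase that removes C4 methyl groups (chr8:64718123-64733578), was at 9.78, 9.75 and 9.69 in ViPSC, 10.89, 10.73 and 11.39 in TiPSC, and 10.41, 10.22 and 10.16 in ESC. The 3 groups did not overlap, with ESC between the induced groups. TiPSC was 2.40-fold above ViPSC (difference -1.27 ± 0.16, adjusted p = 0.00389). Msmo1 also lies on chromosome 8. Its difference was -1.03 ± 0.08 after centring by chromosome (adjusted p = 0.000668) and -1.07 ± 0.10 without TiPSC 3 (adjusted p = 0.00390), within a range of adjusted p from 0.000120 to 0.0284 over 20 alternatives.

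Cyp51, the lanosterol demethylase that starts the late steps (chr5:4080674-4104697), was at 9.09, 9.02 and 9.10 in ViPSC, 9.90, 9.81 and 10.06 in TiPSC, and 9.58, 9.34 and 9.23 in ESC. Here too the 3 groups did not overlap and ESC lay between. The difference of -0.85 ± 0.11 was 1.81-fold (adjusted p = 0.00424), and 2 further probe sets gave -0.88 and -0.78. The latter probe set was dim, at 3.85 to 4.99 in the induced groups. Hsd17b7, the ketoreductase of C4 demethylation (chr1:169949535-169969242), was at 7.69, 7.77 and 7.90 in ViPSC, 8.24, 8.18 and 8.32 in TiPSC, and 7.91, 8.05 and 7.73 in ESC. The induced groups were apart (difference -0.46 ± 0.10, adjusted p = 0.0349), but its 4 probe sets disagreed. Another Hsd17b7 probe set gave 0.09 ± 0.25.

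The other late enzymes did not pass with the probe set kept. Nsdhl, the dehydrogenase of the same demethylation, differed by -0.44, the isomerase Ebp by -0.49, the desaturase Sc5d by -0.42 and Dhcr7, the reductase of the last step to cholesterol, by -0.41. Nsdhl, Ebp and Dhcr7 had every ViPSC array below every TiPSC array, while the Sc5d arrays met, at 8.66 in ViPSC 3 and TiPSC 2. A dimmer Sc5d probe set passed (-0.94 ± 0.20, adjusted p = 0.0328). Tm7sf2, a sterol C14 reductase, stood apart from the rest of the pathway, with 7.29 to 7.43 in ViPSC and 7.19 to 7.51 in TiPSC. Where probe sets had a mean of at least 7 over all 11 arrays, VM and TTF included, all 23 of the sterol enzymes lay lower in ViPSC. Of these, 9 of 23 passed when each was tested. Over all probe sets at that level 54.6% lay lower and 3.53% passed as lower. The cutoff left out dimmer probe sets, among them that of Tm7sf2, at 4.68 in VM, and the Hsd17b7 probe set at 0.09 ± 0.25.

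**Figure D2:**
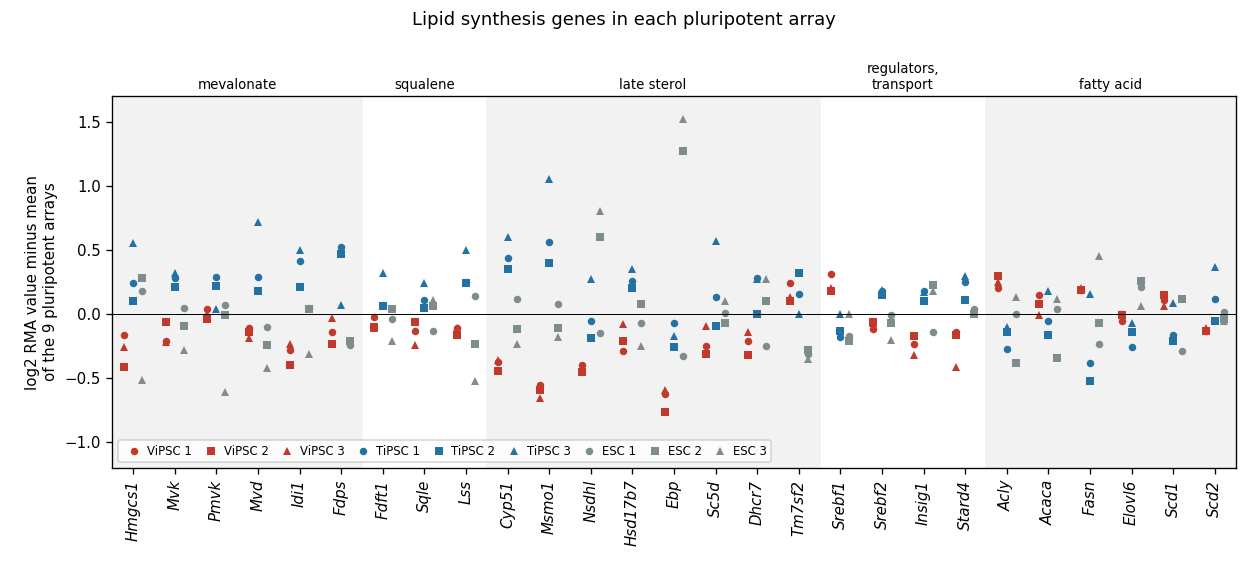
Vertical axis, log2 value of each measured member minus its mean over the 9 pluripotent arrays, with 1 point for each array of ViPSC, TiPSC and ESC, in order of pathway step. ViPSC points lie below TiPSC points in 14 of the 17 sterol enzymes, and ESC 2 and ESC 3 stand high for Nsdhl and Ebp.

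The arrays of a group were not alike in how far the pathway moved. The median deviation of the 17 sterol enzymes from the 9-array mean was -0.23 to -0.19 in ViPSC, 0.26, 0.20 and 0.32 in TiPSC 1, 2 and 3, and -0.04, -0.01 and -0.23 in ESC 1, 2 and 3. TiPSC 3 was the highest of the 9 arrays in 11 of the 17 enzymes, ESC 3 the lowest in 7 and ViPSC 2 the lowest in 6. How often each array was highest or lowest among all genes was not counted. Array weights, which are lower for arrays that deviate over all genes, were 0.439 for TiPSC 3, 0.397 for ESC 3 and 1.75 for ViPSC 2. Over the 9 arrays the weights ran from 0.262 (ESC 1) to 2.03 (ViPSC 3). The same deviation of the 8 fibroblast and feeder markers was 0.70, 0.33 and 0.00 in TiPSC 1, 2 and 3 and -0.18 to -0.06 in ViPSC. Within TiPSC, array 3 had the highest sterol enzymes and the lowest fibroblast markers, while array 1 was above array 2 in both. As a group, TiPSC lay above ViPSC in both. The part of these markers, and of the endothelial and macrophage markers given above, in the result was not tested.

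Of the 6 calls, 4 were lost without single arrays. Msmo1 and Cyp51 passed without any single array, but only those 2 members passed without ViPSC 1, ViPSC 2, ViPSC 3 or TiPSC 1, where 1.14% to 1.40% of all genes passed. Without TiPSC 2 and without TiPSC 3, 4 members passed (2.81% and 4.80% of all genes). Leaving out an ESC array, which changes only the shared spread, gave 13 lower members without ESC 1 (1994 of all genes passed, against 1024 with every array), 5 without ESC 2 (1061 genes) and 10 without ESC 3 (1613 genes). Without the arrays of the induced groups, Idi1 had adjusted p-values of 0.0693, 0.0809, 0.0600 and 0.0713 without ViPSC 1, 2, 3 and TiPSC 1. Mvk had 0.0781 to 0.150 without any 1 ViPSC or TiPSC array and 0.0510 without ESC 2, Hsd17b7 0.0712 to 0.145 without any 1 ViPSC or TiPSC array, and Stard4 0.0687 to 0.106 without any 1 of these but TiPSC 2.

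Of the 4 regulators and carriers, 1 passed. Stard4, a carrier that moves cholesterol between membranes (chr18:33199138-33213862), was at 7.47, 7.45 and 7.19 in ViPSC, 7.85, 7.71 and 7.91 in TiPSC, and 7.60 to 7.64 in ESC. All TiPSC arrays lay above all other pluripotent arrays, and ViPSC was lower than TiPSC by the test (difference -0.46 ± 0.10, adjusted p = 0.0283). The mean of its 3 probe sets differed by only -0.18 (adjusted p = 0.484). Insig1, the sterol-sensing brake that SREBP itself induces, was at 9.39 to 9.54 in ViPSC, 9.81 to 9.90 in TiPSC and 9.57 to 9.94 in ESC. Its difference of -0.39 ± 0.11 did not pass (adjusted p = 0.0661), nor did that of Srebf2, which encodes SREBP-2, at -0.25 ± 0.08 (adjusted p = 0.0984). Srebf1, which encodes both SREBP-1 forms, ran the other way, at 9.27, 9.14 and 9.16 in ViPSC and 8.79, 8.84 and 8.97 in TiPSC (difference 0.33 ± 0.09, adjusted p = 0.0730).

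Fatty acid enzymes mostly lay on the other side of 0. The median difference of the 6 genes was 0.17 and 5 of 6 lay above 0. None passed with limma's adjusted test. The unadjusted p was under 0.05 in 2 of 6, and in 3814 of all 18193 genes. Acly, the citrate lyase that supplies cytosolic acetyl-CoA to both pathways, was at 12.03, 12.14 and 12.09 in ViPSC, 11.57, 11.69 and 11.74 in TiPSC, and 11.83, 11.46 and 11.97 in ESC. Its induced groups were apart, by 0.42 ± 0.13 (adjusted p = 0.0926), and it passed without ESC 3 (adjusted p = 0.0479, within 0.00975 to 0.937 over 20 alternatives). Fasn, the fatty acid synthase, was at 10.90 to 10.91 in ViPSC, 10.33, 10.19 and 10.86 in TiPSC, and 10.48, 10.64 and 11.16 in ESC. TiPSC 3 nearly reached ViPSC, and the difference was 0.44 ± 0.20 (adjusted p = 0.252). Acaca, the carboxylase that makes malonyl-CoA, overlapped between groups (difference 0.08).

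Srebf1, Acly, Acaca and Fasn all lie on chromosome 11, whose median was 0.47 higher in ViPSC than in TiPSC. After each array was centred by chromosome, their differences were -0.11, -0.02, -0.36 and 0.00, and none of the 4 passed. The same 6 sterol-side members passed as before. Off chromosome 11, the elongase Elovl6 differed by 0.14 and the desaturases Scd1 and Scd2 by 0.20 and -0.27, with no call among the 3 for the probe sets kept. The 2 bright Elovl6 probe sets disagreed in size. The one kept was at 10.45, 10.49 and 10.50 in ViPSC and 10.24, 10.36 and 10.43 in TiPSC, whereas the other was at 9.49, 9.21 and 9.39 in ViPSC, 8.66, 8.56 and 8.66 in TiPSC, and 9.26, 9.67 and 9.31 in ESC. When every probe set was tested, the latter passed as higher in ViPSC (0.73 ± 0.12, adjusted p = 0.0142), and it was lower in TiPSC than in ESC (-0.79 ± 0.12, adjusted p = 0.0446).

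**Figure D3:**
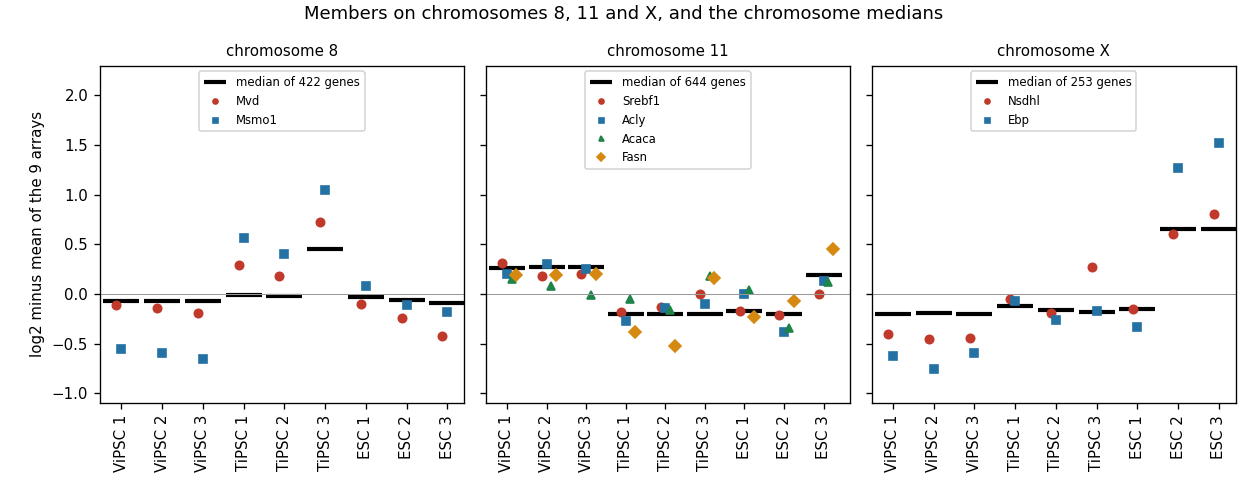
Log2 deviation of each array from the 9-array mean for the members on chromosomes 8, 11 and X (coloured points) and the median of all genes at 7 or more on the same chromosome (black bars). Acly and Fasn lie above 0 in ViPSC, as the chromosome 11 bar does, but Fasn is also above 0 in TiPSC 3, where the bar is at -0.20, Msmo1 is below the chromosome 8 bar in ViPSC and above it in TiPSC, and Ebp exceeds the X bar of 0.65 in ESC 2 and ESC 3.

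Both induced groups were then set against ESC. These comparisons share their ESC arrays with each other, so the values are given side by side and not correlated. Against ESC, 1 member was higher in ViPSC and 0 were lower, where 1.45% and 0.693% of all genes were (2.14% in either direction). No member passed in TiPSC against ESC with limma (0.632% of all genes did, 0.291% higher and 0.341% lower). The unadjusted limma p was under 0.05 in 12 of 27 members and in 3284 of all 18193 genes. Fitted with array weights, which lower the weight of arrays that deviate, the same comparison called 9 members higher and 3 lower, but also 16.0% of all genes. The median of the 17 sterol enzymes was -0.16 in ViPSC against ESC and 0.36 in TiPSC against ESC, where all genes had medians of 0.00 and 0.03. In TiPSC, 12 of 27 members had all 3 arrays above all ESC arrays (9.73% of all genes) and 1 had them below (6.11%). In ViPSC, 3 lay above (11.3%) and 9 below (10.9%).

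Tm7sf2 was the member that passed. It was at 7.43, 7.29 and 7.32 in ViPSC, 7.35, 7.51 and 7.19 in TiPSC, and 6.88, 6.91 and 6.84 in ESC. All 6 induced arrays lay above all 3 ESC arrays. The difference was 0.47 ± 0.10 for ViPSC (adjusted p = 0.0429) and 0.48 ± 0.10 for TiPSC (adjusted p = 0.0712). The first was lost without ViPSC 1, 2 or 3 (adjusted p = 0.184, 0.155 and 0.163), TiPSC 1 (0.0783), ESC 2 (0.125) or ESC 3 (0.0631), within 0.00513 to 0.184 over 21 alternatives, 8 of which kept the call. A dimmer Lss probe set was higher in TiPSC than in ESC (1.07 ± 0.11, adjusted p = 0.0111), and a dimmer Cyp51 probe set was lower in ViPSC (-0.50 ± 0.10, adjusted p = 0.0467). For Msmo1 and Cyp51 the differences were -0.52 and -0.31 in ViPSC and 0.74 and 0.54 in TiPSC, with adjusted p-values of 0.0779 and 0.0696 for TiPSC.

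The X-linked enzymes Ebp and Nsdhl split the ESC arrays. Ebp (chrX:8185329-8193512) was at 9.07, 10.68 and 10.93 in ESC 1, 2 and 3, at 8.65 to 8.82 in ViPSC and at 9.14 to 9.33 in TiPSC. Nsdhl (chrX:72918521-72958528) was at 9.01, 9.77 and 9.97 in ESC, 8.72 to 8.77 in ViPSC and 8.98 to 9.43 in TiPSC. ESC 2 and ESC 3 were the high arrays for both genes, and these are the arrays in which X-linked genes had a median of 0.65. Ebp differed by -1.47 ± 0.39 between ViPSC and ESC (adjusted p = 0.0935). Without ESC 1 the Ebp difference was -2.05 (adjusted p = 4.67e-05), and without ESC 2 and ESC 3 it was -0.32 (adjusted p = 0.224), within 4.67e-05 to 0.286 over 21 alternatives. Nsdhl gave -0.85 ± 0.22 (adjusted p = 0.0895), -1.13 without ESC 1 (adjusted p = 0.00105) and -0.28 without ESC 2 and ESC 3 (adjusted p = 0.476). After centring by chromosome Ebp differed by -0.93 and Nsdhl by -0.30.

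The source cells differed far more than the pluripotent groups, though with 1 array each they allow no test, and no detection calls were used. VM RNA was low in these genes. Against TTF, 15 of 27 members were at least 1 log2 unit lower in VM and 0 were higher, where 13.6% and 10.6% of all genes were. At 2 units, 6 members were lower (4.62% of all genes) and 0 higher (4.68%). The median difference was -1.30, against -0.02 over all genes. VM also held RNA of the endothelial and of most of the fibroblast markers, as given above, whose part in the result was not tested. The gap differed along the pathway. The mevalonate enzymes had a median of -0.29, from -2.25 in Fdps and -1.30 in Mvk to 0.00 in Mvd, 0.16 in Hmgcs1 and 0.35 in Pmvk. The other 3 bright Hmgcs1 probe sets gave -0.57, -0.30 and -0.28. The squalene, late sterol and fatty acid enzymes had medians of -1.40, -1.63 and -2.15.

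The desaturases and elongase showed the widest gaps. Scd1, which puts the double bond into stearate and palmitate, was at 4.38 in VM, near the low end of the scale, 10.81 in TTF and 9.34 to 9.77 in the 9 pluripotent arrays. With the probe set kept, it was the lone member at least 1 unit lower in every pluripotent array than in TTF. A dimmer Scd1 probe set was at 7.31 in TTF, within its pluripotent range of 6.69 to 7.80. Scd2, the related desaturase, was at 9.72 in VM, 12.57 in TTF and 11.25 to 11.75 in pluripotent cells. Elovl6, which elongates palmitate, was at 5.91 in VM, 8.75 in TTF and 10.24 to 10.75 in pluripotent cells. The adipocyte gene Fabp4, which endothelial cells also express, reached 13.56 in VM against 9.09 in TTF, while Adipoq stayed at 2.95 and 2.92.

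All 9 pluripotent arrays were at least 1 log2 unit above VM in 18 of 27 members and below it in 0, where 12.6% and 11.3% of all genes were. The 18 held all 6 fatty acid enzymes, all 3 squalene enzymes and 5 of 8 late sterol enzymes, but 2 of 6 mevalonate enzymes (Idi1 and Fdps) and 2 of 4 regulators (Srebf2 and Insig1). Lss was at 6.01 in VM and 8.91 to 9.93 in pluripotent cells, and Dhcr7 at 6.21 and 8.68 to 9.28. Against TTF, 4 of 27 members (Idi1, Fdft1, Insig1 and Elovl6) were at least 1 unit higher in all 9 arrays and 1 was lower. Of all genes, 10.7% were higher and 11.4% lower. The median difference of the pluripotent arrays was 0.62 from TTF and 1.74 from VM, against 0.04 over all genes in both. At 2 log2 units, 9 members lay above VM (4.25% of all genes) and 0 below it (5.54%), and 0 lay above TTF (3.61%) or below it (5.27%).

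**Figure D4:**
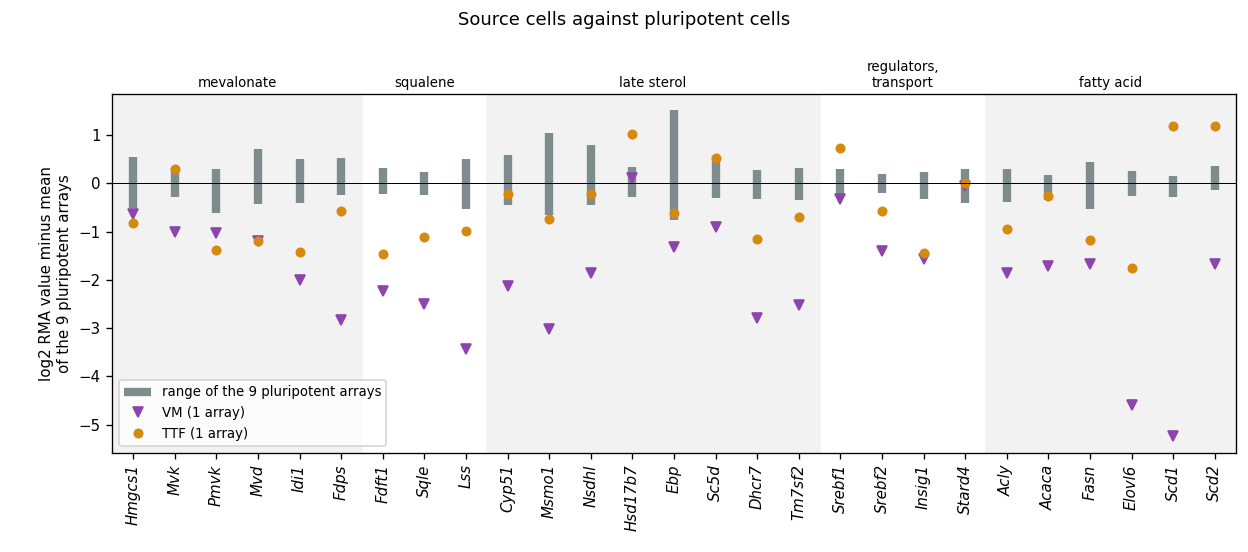
Vertical axis, log2 value of each measured member minus its mean over the 9 pluripotent arrays, for VM (triangles), TTF (circles) and the range of the 9 pluripotent arrays (bars). VM is at least 1 unit below every pluripotent array in 18 of 27 members, and furthest in Scd1 and Elovl6, while TTF is so in 4.

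A further 56 measured genes (of 67 listed) take other parts in cholesterol synthesis, sense, take up, store or export sterol, or take part in fatty acid synthesis. Between ViPSC and TiPSC, 1 of 56 was higher and 1 lower, where 3.20% and 2.43% of all genes were, with a median of -0.10. Npc1, which exports cholesterol from lysosomes, was at 9.15, 9.10 and 9.14 in ViPSC, 8.55, 8.40 and 8.53 in TiPSC, and 8.66, 8.35 and 8.59 in ESC. ViPSC stood above both other groups, by 0.64 ± 0.10 over TiPSC (adjusted p = 0.00896) and 0.60 ± 0.10 over ESC (adjusted p = 0.0222). Tecr, a reductase of very long chain fatty acid synthesis on chromosome 8, was at 10.24 to 10.42 in ViPSC, 10.79, 10.75 and 11.11 in TiPSC, and 9.98 to 10.33 in ESC. TiPSC lay above ViPSC by the test (ViPSC minus TiPSC -0.55 ± 0.13, adjusted p = 0.0395) and above ESC (0.71 ± 0.13, adjusted p = 0.0495), and TiPSC 3, with the raised chromosome 8 median, was its highest array. Stard3, an endosomal cholesterol carrier on chromosome 11, was the other gene to pass in ViPSC against ESC (0.47 ± 0.09, adjusted p = 0.0342).

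These genes also separated the source cells. Near the low end of the scale RMA compresses differences, so the sizes can be understated for Acacb, Pparg and Apoe, at 4.85, 4.19 and 5.97 in TTF, and for Fads2 and Slc25a1, at 5.40 and 5.79 in VM. VM was higher than TTF by 4.88 in Acacb, the carboxylase isoform that restrains fatty acid oxidation, by 3.83 in Apoe, a lipoprotein component, by 3.12 in Pparg, a lipid-storage regulator, and by 2.26 in Abca1, a sterol exporter. VM was lower in Slc25a1, which carries citrate out of mitochondria (VM minus TTF -3.84), in Fads2, a fatty acid desaturase (-3.72), and in Erg28, a scaffold of sterol demethylation (-3.10). All 9 pluripotent arrays were below VM and TTF in Vldlr, a lipoprotein receptor (differences of -5.08 to -3.83 from VM and of -3.96 to -2.72 from TTF). They were above TTF in Apoe by at least 5.69 units and in Lbr, a sterol C14 reductase like Tm7sf2, by 2.23 to 2.54, and above VM in Slc25a1 by 3.88 to 4.04. Other genes were, like Vldlr, below both sources in all 9 arrays, among them Acat1, Hacd1 and Mylip. In that order they differed from VM by -4.18 to -3.34, -3.84 to -3.15 and -3.03 to -2.44. From TTF they differed by -2.72 to -1.87, -2.60 to -1.91 and -3.07 to -2.48.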

How the data were processed

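Affymetrix mouse arrays measured RNA of 11 samples. The deposited values are log2 expression values for each probe set, made by the authors with RMA, which corrects background and normalizes between arrays, per the submitters' processing notes. The version and software are not given in the sources used here. RMA compresses differences near background.

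Probe sets were named through the platform annotation: 34945 had 1 symbol, 932 several, 9160 none and 64 were controls. For each of 18193 genes, the probe set brightest on average across all arrays was kept. Chromosomes and promoter sequences came from RefSeq tables of GRCm38.p6, which placed 18028 genes.

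ViPSC, TiPSC and ESC were compared using limma 3.58.1 (R 4.3.3), fitting group means to the 9 arrays together, with eBayes and two-sided tests. P-values were adjusted by Benjamini-Hochberg over all 18193 genes in each of 3 comparisons, and a gene passed under 0.05. Errors are standard errors of this fit. VM and TTF were compared without a test by counting genes at least 1 log2 unit apart. Chromosome medians used genes averaging 7 or more in pluripotent cells. The fit was tested on simulated data, and summaries used Python 3.11.15 with pandas 2.3.3. The number of arrays limits the precision.

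All 28 genes are named. Of the other pathway genes, those that passed are named. So are up to 4 per list at least 2 log2 units apart between VM and TTF, and some of those furthest from the pluripotent arrays. The members and lists were chosen with earlier results of these data known. Alternatives were another choice of probe set, normalization, filter, spread or arrays and centring by chromosome. ESC 2 and ESC 3 were left out together only after the data had been seen.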

Additional observations from a re-analysis of the deposited data

Results flagged for a closer look

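With the probe set kept, every ViPSC array in 4 members moved one way from VM and every TiPSC array the opposite way from TTF. How many of all genes share this pattern was not counted. In Scd1, Scd2 and Srebf1 all induced arrays lay between VM and TTF, a position that by itself gives opposite directions. Scd1 was 5.35 log2 units higher in the ViPSC mean than in VM and differed by -1.28 between the TiPSC mean and TTF. Scd1 in VM, at 4.38, was near the low end of the scale, so 5.35 can understate its difference. For Scd2 the same differences were 1.53 and -1.05, for Srebf1 0.55 and -0.83, and for Stard4 -0.17 and 0.22. In Scd1, Scd2 and Srebf1 the ViPSC arrays rank above their source and the TiPSC arrays below theirs, and in Stard4 the order is turned. The further Scd2 probe sets kept this order. Further Stard4 probe sets had ViPSC above VM, at 6.76 to 6.88 over 5.99 and at 6.74 to 7.18 over 6.50. Their TiPSC arrays were above TTF in the first and below it in the second. A dimmer Scd1 probe set had TiPSC 3 at 7.80, above TTF at 7.31. With 1 array of each source, the difference between the changes was not tested.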

How the results depend on the processing

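In ViPSC against TiPSC, 1024 genes passed, with 1635 when every probe set was tested, 2621 with the arrays of the 2 groups only, 3613 with array weights and 207 to 1994 without single arrays. Lower members numbered 6 (a different 6, with Lss and without Hsd17b7, when probe sets ending in x or s were left out), but 15 with 2 groups only, 15 with weights and 2 to 13 without single arrays, and higher members 0, but 2, 3 and 0 to 2. In ViPSC against ESC, 390 genes passed, with 73 for 2 groups only, 3453 with weights and 22 to 2519 without single arrays. Lower members numbered 0, but 5 with weights, 1 (Msmo1) after centring by chromosome and 0 to 4 without single arrays. Higher members numbered 1, but 3 with weights, 0 to 1 without single arrays, and 0 with 2 groups only, arrays centred on their medians, repeated quantile normalization, a trended robust prior, chromosome centring, or without ESC 2 and ESC 3. In TiPSC against ESC, 115 genes passed, with 65 for the mean of probe sets, 1 for 2 groups only, 2913 with weights, 73 without ESC 2 and ESC 3 and 12 to 3038 without single arrays. Lower members numbered 0, but 3 with weights and 0 to 2 without single arrays, and higher members 0, but 9 with weights, 1 (Lss) without probe sets ending in x or s, 1 (Msmo1) after chromosome centring and 0 to 9 without single arrays. At 2 log2 units, VM against TTF gave 1693 genes in place of 4413 and 6 lower members in place of 15. Pluripotent arrays against VM gave 1781 in place of 4336 genes and 9 in place of 18 higher members. Against TTF they gave 1615 in place of 4015 genes and 0 in place of 4 higher members, or 2 with the mean of probe sets. The 1 lower member, Scd1, became 0 at 2 units, with the mean of probe sets and with centred arrays, and the count was 1 to 2 without single arrays. Over 1674 values of members under alternatives, 1504 kept their side of the threshold without a change of sign at 2 decimals, 41 lost a call, 86 gained one and 43 changed sign. Of these 43, 1 had been called: Hsd17b7 in ViPSC against TiPSC turned to 0.09 without probe sets ending in x or s, because another probe set was taken, which also turned Hsd17b7 in TiPSC against ESC to -0.50 and Fdft1 in ViPSC against ESC to 0.03. Centring by chromosome turned Srebf1, Acly and Acaca in ViPSC against TiPSC to -0.11, -0.02 and -0.36, Srebf1, Srebf2, Acly, Acaca and Fasn in ViPSC against ESC to -0.01, -0.04, -0.03, -0.23 and -0.22, and Nsdhl in TiPSC against ESC to 0.07. The mean of probe sets turned Scd2 in ViPSC against ESC to 0.02. Arrays centred on their medians and repeated quantile normalization turned Srebf2 in ViPSC against ESC to -0.04 and -0.03 and Srebf1 in TiPSC against ESC to -0.01 and -0.02. Weights turned Insig1 and Acly in TiPSC against ESC to -0.03 and 0.05. Without ESC 2 and ESC 3, Pmvk, Mvd, Lss, Dhcr7 and Srebf2 in ViPSC against ESC turned to -0.07, -0.05, -0.26, 0.03 and -0.07, and Nsdhl, Ebp, Acaca and Scd1 in TiPSC against ESC to 0.16, 0.17, -0.05 and 0.19. Without single arrays, ViPSC against ESC ranged from -0.15 to 0.02 for Mvk, -0.03 to 0.31 for Pmvk, -0.08 to 0.05 for Fdft1, -0.07 to 0.25 for Lss, -0.04 to 0.05 for Srebf2, -0.01 to 0.22 for Acaca and -0.01 to 0.19 for Scd1. TiPSC against ESC ranged from -0.03 to 0.09 for Srebf1, -0.06 to 0.13 for Insig1, -0.23 to 0.02 for Acly and -0.09 to 0.14 for Acaca. The causes of the other shifts were not tested.

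The labels do not say whether replicate numbers pair the samples. Deviations of same-numbered arrays correlated at -0.125 to 0.118, which does not settle this with 3 arrays a group. With the replicate number as a block, 623 genes passed between the induced groups, 103 in ViPSC against ESC and 9 for TiPSC against ESC. Lower members between the induced groups were then 3 (Idi1, Cyp51 and Msmo1), and higher members in ViPSC against ESC 0.

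Signals near background limit Scd1 in VM and the dim probe sets.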
